A study of Drosophila melanogaster with 54 samples.

Results

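Proneural and neuroblast genes were followed as 8 named members, ac, l(1)sc, ase, wor, pros, insc, mira and SoxN, out of the 17558 genes in each of 4 count tables of Drosophila melanogaster. The members were found by symbol in the blastoderm table and by FlyBase identifier in the tables of gastrulae, late embryos and S2 cells. All 8 were present in every table. In the fly embryo, proneural proteins of the basic helix-loop-helix family give groups of ectodermal cells the competence to become neural, and Notch signalling then restricts that fate to single cells. The selected cells leave the epithelium as neuroblasts, which divide asymmetrically and pass fate determinants to the smaller daughter. The achaete-scute genes ac, l(1)sc and ase lie together on the X chromosome, and the other 5 members are autosomal.

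The study lowered mof RNA by RNA interference. MOF is the histone acetyltransferase of the male-specific lethal complex, which raises transcription from the single male X. Females and males both have it in further complexes. Embryos were the progeny of mothers that carried the driver mat-a-tubGal4 with a control RNAi transgene or a mof RNAi transgene, mated to their siblings, so the controls carry the driver and an RNAi transgene too, and the driver acts in the mother's germ line. The blastoderm stage (St5, nuclear cycle 14) is held by 4 males and 2 females of the control and by as many of each sex with mof RNAi. Gastrulae (St7) comprise 7 male and 6 female controls, with 6 males and 4 females under mof RNAi. Each St5 and St7 library is a single embryo. Late embryos of 14 to 16 h (St15) carried Sxl-GFP, were sorted by it and were pooled by 25, in 3 pools per group except 4 of mof females. S2 (Dmel-2) cells, a line derived from embryos, received 10 ug of dsRNA for 3 days, against GFP in 3 libraries and against mof in 3. Whether the S2 libraries are separate cultures is not stated, so p-values there measure only the spread between libraries, which may be technical. Any difference in background between the control and the mof stock cannot be told apart from mof depletion.

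The 54 libraries held 28278799 to 41513416 counts at St5, 5504650 to 10024836 at St7, 19018190 to 38076982 at St15 and 20487339 to 38772186 in S2 cells. mof itself had a mean of 2.72 CPM (counts scaled to 1000000 counts per library) in St5 mof males against 321 in control males, 1.08 against 604 in St5 females, 9.10 against 136 in St7 males, 11.4 against 37.7 in St7 females, 2.55 against 25.4 in St15 males and 2.82 against 11.1 in St15 females. In S2 cells it was 61.2 ± 11.3 CPM (SD, n = 3) after mof dsRNA and 69.4 ± 3.10 (n = 3) after GFP dsRNA, so a lower mof level cannot be read from the S2 libraries. The libraries labelled mof male 1 and 2 at St5 held 0 counts of Y-linked genes and 469 and 400.0 CPM of Sxl, the female sex switch, against 15 to 86 Y-linked counts and 31.5 to 84.1 CPM of Sxl in the remaining 6 libraries labelled male. The St5 libraries labelled female held 32.5 to 34.5 CPM of Sxl in controls and 8.77 to 22.4 under mof RNAi. The level of Sxl therefore did not follow the sex label at St5. The genotype field of the St5 control females names the mof stock. At St15 the mof libraries carry the mof stock number beside the word control. Titles were followed in both cases. Values below are CPM unless a log2 fold change is named, and mean ± SD is over the libraries of a group. Fold changes are from edgeR's quasi-likelihood test and are given ± standard error, with p adjusted by Benjamini-Hochberg over all genes of the table and a threshold of 0.05. In whole embryos, a change in the number of neural cells and a change of RNA per cell cannot be told apart.

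On genome build dm6, ac spans X:370031-370947, l(1)sc X:409721-410817 and ase X:460747-463176, all on the plus strand and all inside the span of CG32816 on the opposite strand, with no exon bases in common. wor lies at 2L:15423297-15425580 and SoxN at 2L:8825645-8829670, and neither overlaps another gene. mira lies at 3R:19931799-19935120, within the span of Hs6st but sharing no exon bases. pros spans 3R:11328480-11407627 and shares exon bases with a noncoding gene on the other strand, lncRNA:CR46008. insc spans 2R:20821262-20836028 and shares exon bases with sktl on the same strand, which makes its counts uncertain.

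The members followed very different courses through the stages. Control males are taken here to describe them, and levels of different stages come from separate tables and are set side by side with no test. ac and l(1)sc, the proneural factors of the early neuroectoderm, had medians of 3.07 and 7.12 CPM at St5, 37.9 and 40.7 at St7, and 0.201 and 0.892 at St15. ase, the member of the complex that is expressed in neuroblasts themselves, had 0 counts in all 12 St5 libraries (a floor of 3 counts over the control males allows up to 0.0227 CPM), a median of 1.41 CPM at St7 and 11.8 at St15. wor, a zinc finger factor of the Snail family expressed in neuroblasts, had a median of 0.133 CPM at St5 and 0 at St7, with 0 counts in 5 of the 7 control males, and 19.6 at St15. pros, the homeodomain protein that neuroblasts pass to their daughters, had medians of 76.02, 40.8 and 106.4 CPM at St5, St7 and St15. mira, the scaffold that carries Prospero to one pole of the dividing cell, was the most abundant member at St5 and St7, with medians of 880.1 and 519 CPM, and had 93.6 at St15. insc, the adaptor that orients the division, had medians of 1.79, 19.4 and 39.4 CPM. SoxN, a SoxB protein of the neuroectoderm, had medians of 58.6, 108.9 and 130.6 CPM. Per kilobase of exon, mira led at St7 in control males (143 CPM per kilobase) before ac (44.5), l(1)sc (41.4) and SoxN (27.6). At St15 SoxN (33.1) and mira (28.0) stood above insc (10.2), wor (8.72), ase (4.78) and pros (4.31). The divisor is the union of all annotated exons, 24892 bases for pros and 917 to 4026 for the other members. The low place of pros rests on that length. By mean CPM at St15, pros (107) was below only SoxN (133).

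**Figure D1:**
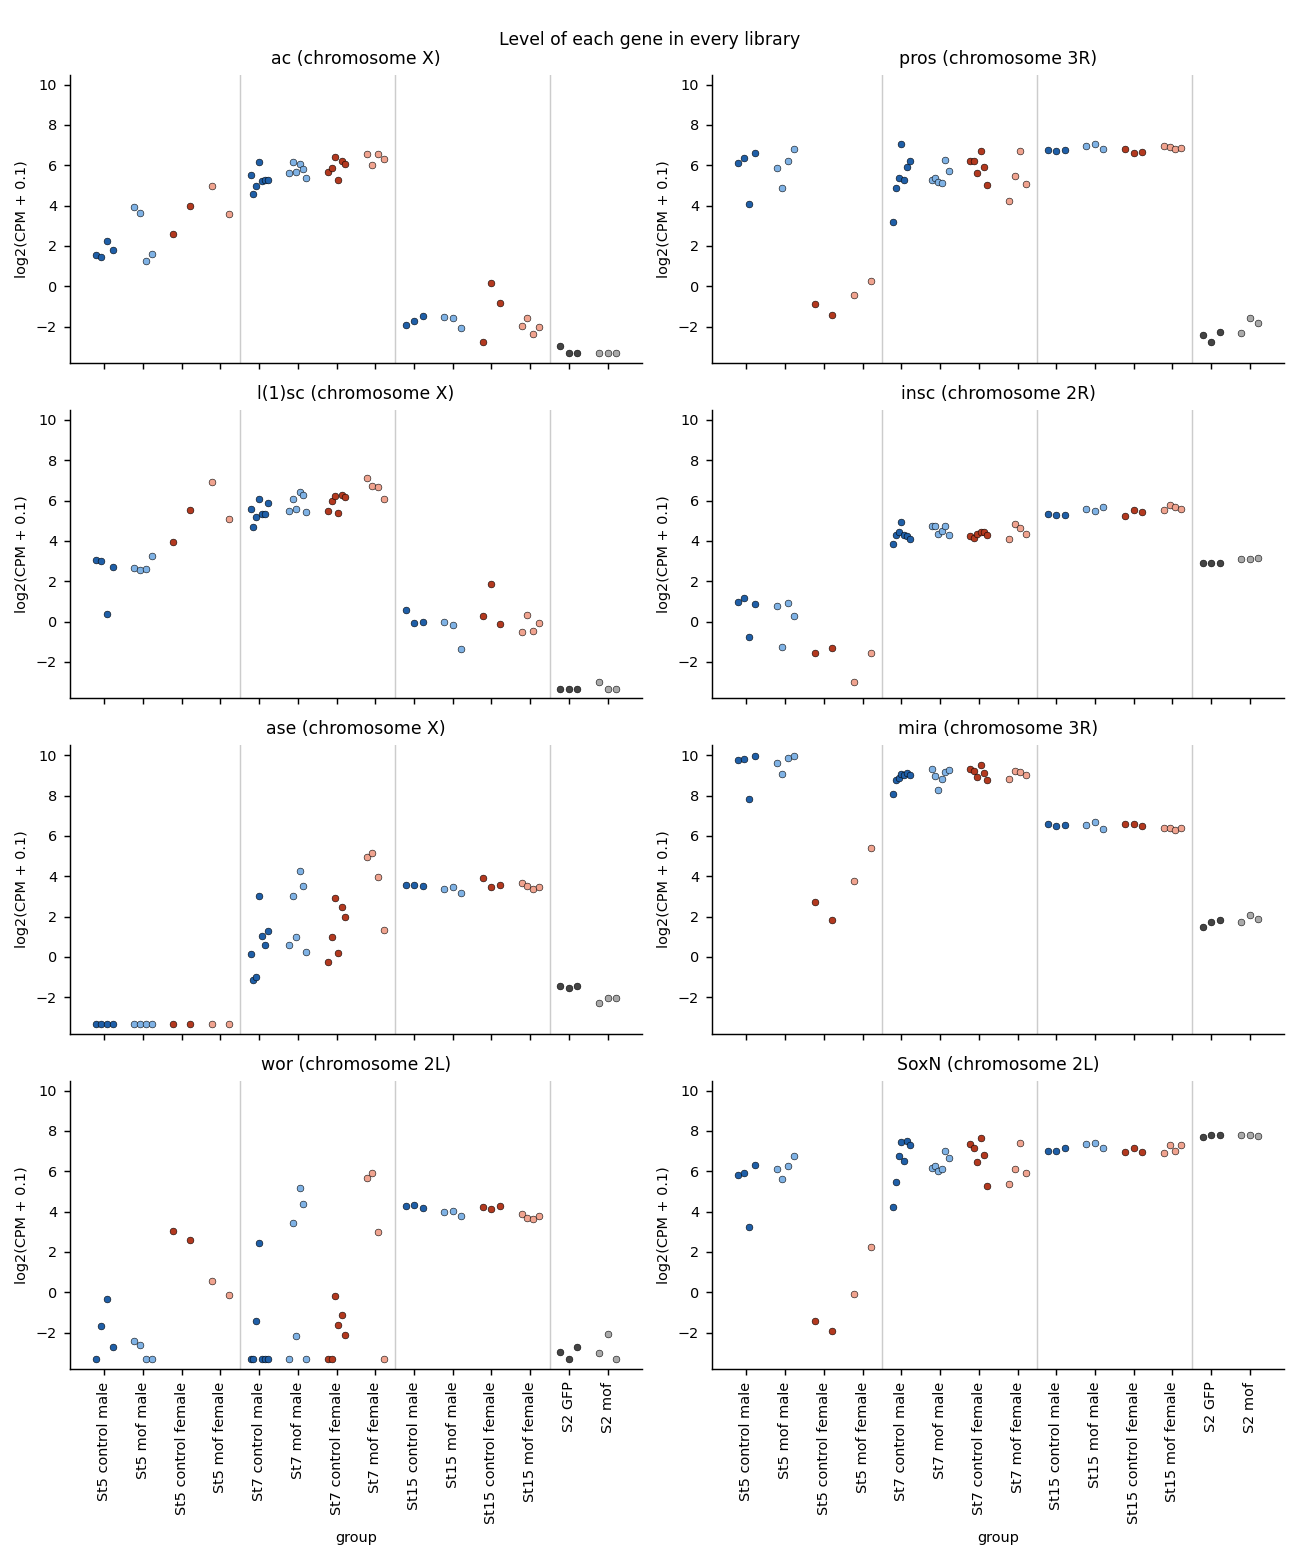
Level of each of the 8 genes in every library, as log2(CPM + 0.1) on the vertical axis, by group on the horizontal axis, 1 point per library. Among control males, ac and l(1)sc have their highest median at St7. ase and wor spread widely over St7 embryos and are even at St15, and SoxN alone is high in S2 cells.

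At the blastoderm stage the 4 libraries labelled female looked unlike those labelled male for nearly every member, but they also differed in a set of genes that marks developmental time. In control males, pros had 69.2, 82.9, 16.7 and 98.6 CPM, against 0.449 and 0.276 in control females. mira had 858, 902, 224 and 1001 CPM in control males against 6.56 and 3.43. SoxN had 57.2, 59.9, 9.46 and 78.6 CPM against 0.276 and 0.166. All 3 genes separated the control sexes without overlap, as did 71.2% of all genes, and control male 3 was the lowest control male for each. wor went the other way, with 8.25 and 5.91 CPM in control females and 0 to 0.686 in control males. l(1)sc had 15.2 and 45.6 CPM in control females and 1.20 to 8.24 in control males.

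Between control males and control females at St5, 4 of the 7 tested members were higher in males and 2 lower, where 62.0% of all 9103 genes tested passed, 34.5% higher and 27.5% lower. The higher ones were SoxN (log2 fold change 7.98 ± 1.10, adjusted p = 8.24e-05 in edgeR), pros (7.65 ± 0.90), mira (7.35 ± 0.79) and insc (2.62 ± 0.93, adjusted p = 0.0283). The lower ones were wor (-4.61 ± 1.09, adjusted p = 0.00330) and l(1)sc (-2.21 ± 0.62, adjusted p = 0.00880). ac was lower without passing (-1.46 ± 0.71, adjusted p = 0.0905). It passed with the 2 control groups alone (-1.45, adjusted p = 0.0343) and without mof males 1 and 2 and control male 3 (-1.75, adjusted p = 0.00448). l(1)sc did not pass without control female 2 (-1.27, adjusted p = 0.187). insc did not pass without control female 1 (adjusted p = 0.139), control female 2 (0.121), control male 1 (0.0522) or control male 2 (0.0543), or with the replicate block (2.68, 0.0714). Control females held 246 to 265 CPM of bcd, a maternal egg RNA, where control males held 3.25 to 14.6. The summed level of 8 early zygotic cellularization genes was 931 to 980.3 CPM in control females and 9323 to 10532 in control males. Maternal and early zygotic RNA therefore moved with these member levels, and their part in the male to female difference was not tested.

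When mof was lowered at St5, no member passed in either sex. In males, 0 of 7 tested members passed in edgeR and 0 in DESeq2, 1 had an unadjusted p under 0.05, and 13.8% of all genes passed, 6.51% up and 7.33% down. ac had 2.78, 2.62, 4.63 and 3.36 CPM in control males and 15.3, 12.5, 2.30 and 2.95 in mof males, so the high values came from the libraries labelled mof male 1 and 2, which lack Y-linked counts. Its log2 fold change of 1.50 ± 0.61 (adjusted p = 0.119) was -0.14 without them. mira had 794, 543, 947 and 1014 CPM in mof males, inside the control range or just above it (0.42 ± 0.43, adjusted p = 0.540). In females, 0 of 7 passed in edgeR, 2 had an unadjusted p under 0.05, and 2 passed in DESeq2, where 4.04% of all genes passed in edgeR, 2.24% up and 1.80% down. mira had 13.4 and 42.3 CPM in mof females against 6.56 and 3.43 in controls (2.54 ± 0.66, adjusted p = 0.0521). SoxN had 0.836 and 4.58 CPM against 0.276 and 0.166 (3.69 ± 1.01, adjusted p = 0.0645). Neither gene overlapped between the groups, as was the case for 58.8% of all genes with 2 libraries a side. Both passed without mof female 1 (mira 3.17, adjusted p = 0.0265, and SoxN 4.46, adjusted p = 0.0282). The cellularization genes summed to 2027 and 3221 CPM in these mof females, above both controls, and their part in the result was not tested. Of the 7 members 0 passed for the difference of the mof effect between the sexes in edgeR or DESeq2, with 2 under an unadjusted p of 0.05 and 0.121% of all genes passing (0.0549% positive and 0.0659% negative).

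At gastrulation the wor, ase and l(1)sc RNAs of mof females were above those of control females, and wor and ac of mof males were above those of control males. The change was carried by some embryos and not by others. wor had 0 CPM in 5 control males, 0.268 in control male 3 and 5.41 in control male 4. In mof males it had 0, 10.7, 0.116, 35.4, 20.7 and 0 CPM. In control females it ranged from 0 to 0.776 CPM, with a median of 0.179. In mof females it had 50.5, 60.6, 7.87 and 0 CPM. The groups therefore overlapped at 0, while the 6 mof embryos with wor at 7.87 CPM or more had no equal among the 13 controls.

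ase followed wor embryo by embryo. It had a lowest level of 0.359, a median of 1.41 and a highest level of 7.90 CPM in control males, and 0.732, 2.86 and 7.54 in control females. In mof males it ran from 1.10 through a median of 4.96 to 18.9 CPM, and mof females had 30.7, 36.01, 15.6 and 2.43 CPM. Control male 4, the control with the most wor, was also the control male with the most ase. The 2 proneural genes changed less. l(1)sc had 138, 104, 101.5 and 67.3 CPM in mof females and a range of 41.4 to 77.6 in control females. ac had 40.6 to 71.05 CPM in mof males (median 53.4) and 23.7 to 70.9 in control males (median 37.9).

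In St7 males, 2 of the 8 members rose and 0 fell, where 25.2% of 8717 genes passed, 9.93% up and 15.3% down. These were wor (3.92 ± 1.33, adjusted p = 0.0343) and ac (0.57 ± 0.20, adjusted p = 0.0390). l(1)sc (0.54 ± 0.21, adjusted p = 0.0651), insc (0.34 ± 0.15, adjusted p = 0.0919) and ase (1.78 ± 0.77, adjusted p = 0.0929) did not pass. The male calls were marginal. wor passed the filter on low counts through the mof embryos, and with no filter it did not pass (3.94, adjusted p = 0.0679). It was filtered out of the fit of the 2 male groups alone, and did not pass with a replicate block (3.58, adjusted p = 0.0969). In DESeq2 wor did not pass (3.88, adjusted p = 0.121), while l(1)sc (0.57, adjusted p = 0.0299) and insc (0.37, adjusted p = 0.0458) did. l(1)sc also passed with RLE scaling (0.57, adjusted p = 0.0473) and with scaling on autosomal genes (0.58, adjusted p = 0.0429). ac did not pass with the 2 male groups alone (0.56, adjusted p = 0.0632) or with the block (0.58, adjusted p = 0.0857). Without control male 1, 2, 3, 5, 6 or 7 or mof male 4 or 5 in turn wor did not pass, the least favourable being without mof male 4 (3.19, adjusted p = 0.0840). Without control male 4 wor stood at 7.65 (adjusted p = 0.00446). ac did not pass without control male 2, 3 or 5 or mof male 2, the last giving 0.48 (adjusted p = 0.0917). Without control male 4, l(1)sc (0.69, adjusted p = 0.0181), ase (2.58, adjusted p = 0.0168) and insc (0.50, adjusted p = 0.00699) passed as well. l(1)sc also passed without control male 7 (adjusted p = 0.0308) and without mof male 3 (0.0470) or 6 (0.0368), and insc without mof male 4 (0.0452).

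In St7 females, 3 of the 8 members rose and 0 fell, where 27.8% of genes passed, 11.0% up and 16.8% down. No member separated mof from control gastrulae without overlap in either sex, against 6.99% of all genes in males and 19.3% in females. wor had the highest fold (6.89 ± 1.65, adjusted p = 0.00400), before ase (2.73 ± 0.82, adjusted p = 0.0168) and l(1)sc (0.82 ± 0.24, adjusted p = 0.0139). wor again passed the filter through the mof embryos, and with no filter it stood at 6.91 (adjusted p = 0.0102). ac did not pass (0.50 ± 0.23, adjusted p = 0.10). In the fit of the 2 female groups alone wor was filtered out and ac passed (0.57, adjusted p = 0.0390), so that 3 members rose there too. l(1)sc did not pass without mof female 1 (0.67, adjusted p = 0.0609), while ac passed without control female 3 (0.65, adjusted p = 0.0382) or mof female 2 (0.66, adjusted p = 0.0447). The calls of wor and ase held in every fit that left out a single library.

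The other 4 members did not pass in either sex at St7. pros had a log2 fold change of -0.11 ± 0.45 in males and -0.30 ± 0.52 in females. SoxN had -0.27 ± 0.44 and -0.46 ± 0.51. mira had 0.23 ± 0.17 in males and -0.02 ± 0.20 in females, with a 95% interval from -0.43 to 0.38 in females. For pros the intervals ran from -1.04 to 0.82 in males and from -1.39 to 0.78 in females, so changes within these bounds are not excluded. Of the members, 0 passed for the difference of the mof effect between males and females in edgeR or DESeq2, with 0 under an unadjusted p of 0.05, and 0% of all genes passed. The median over the 8 members was 0.44 in males and 0.38 in females, against -0.02 and -0.05 over all genes tested.

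**Figure D2:**
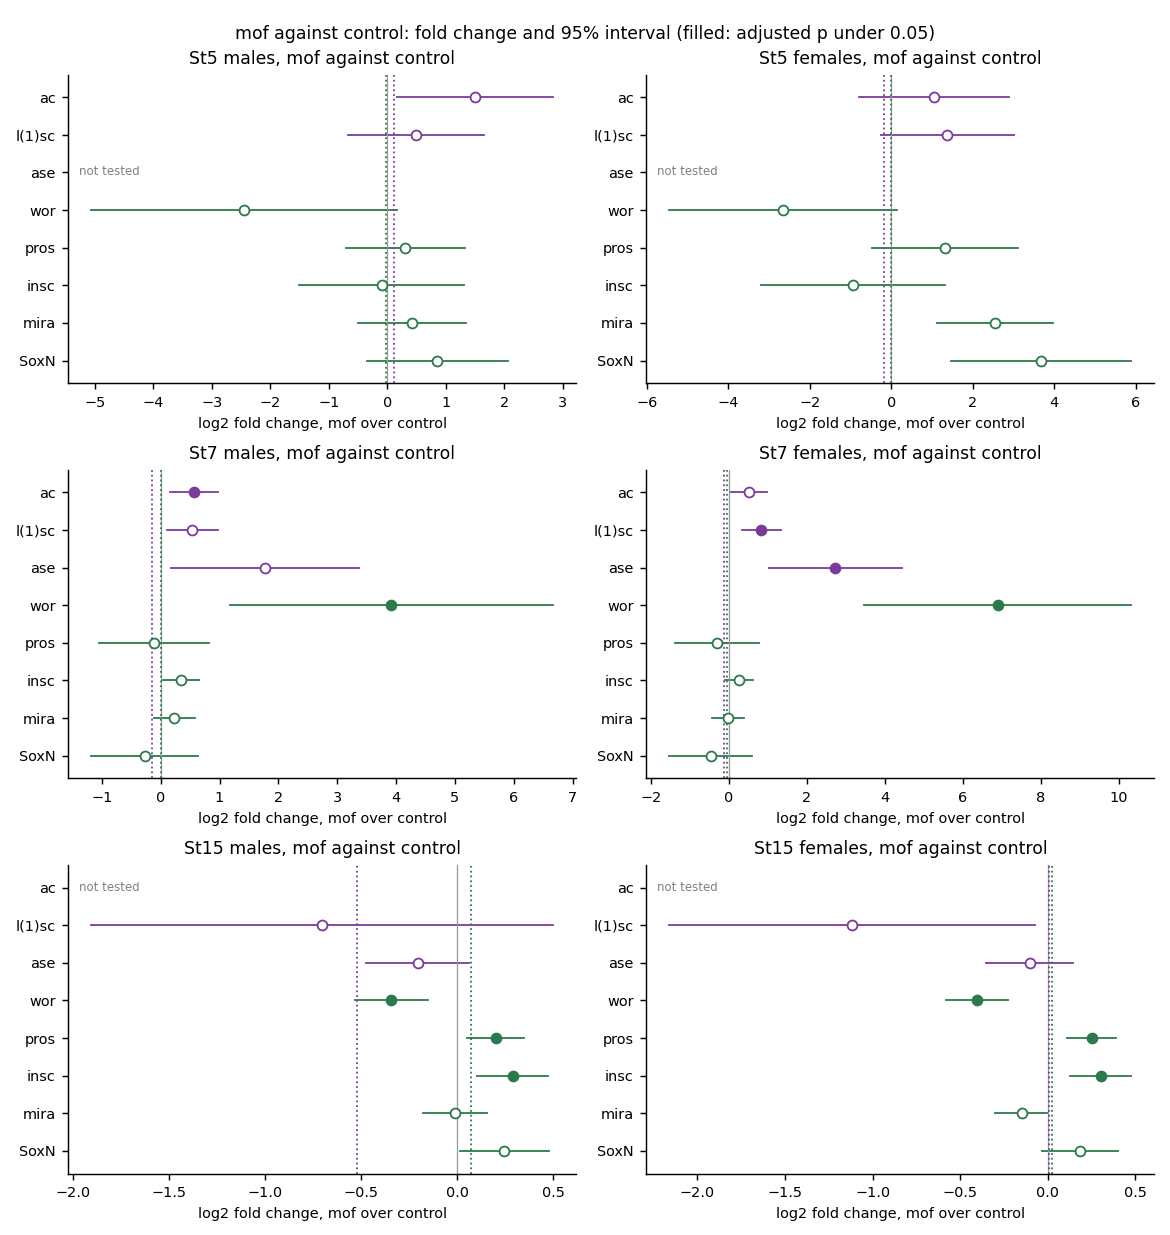
Log2 fold change of each gene, mof over control, with its 95% interval, on the horizontal axis, in males (left) and females (right) of St5, St7 and St15. Purple marks X-linked and green autosomal genes, filled points passed at an adjusted p of 0.05, and dotted lines are the medians of all X-linked (purple) and autosomal (green) genes tested. The horizontal scales differ between panels.

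The 8 genes are described here in sets that varied together over the 23 single gastrulae. The split was not fixed independently of these same values, so a higher r within sets than between them is no test of it. Among ac, l(1)sc, ase and wor, Pearson's r of log2 CPM ran from 0.59 to 0.93 over the 6 pairs (Spearman's rho 0.61 to 0.93), and from 0.60 to 0.92 without the 2 libraries farthest from the median. Among pros, mira and SoxN it ran from 0.73 to 0.94 over 3 pairs (rho 0.65 to 0.92, and 0.60 to 0.92 without 2 libraries). Between these sets it ran from -0.02 to 0.16 over 12 pairs (rho -0.09 to 0.13). insc stood between, at 0.35 to 0.57 with the 7 others. The libraries share a table and mix mof and control embryos. Their depth and the age of the embryo within the stage may also move several genes at once. These values are therefore given as a description with no test.

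Genes of a set also varied together inside single groups, but in control males the sets were not fully apart. There r between the sets reached 0.64, above the lowest value within the first set (0.56). insc had r of 0.20 to 0.85 with the other members in control males. Within the 7 control males the first set had r of 0.56 to 0.88 and the second 0.90 to 0.94. In these males wor had 0 counts in 5 libraries, and 37 of its 39 counts were in control male 4. Its r values there, among them 0.56 with l(1)sc and 0.85 with insc, therefore rest largely on that embryo. In control females wor had 13 counts in all. Within the 6 mof males these were 0.81 to 0.997 and 0.53 to 0.98. Within the 6 control females they were 0.49 to 0.94 and 0.94 to 0.98. Between the sets the groups differed in sign, with r of 0.01 to 0.64 in control males, -0.23 to 0.16 in mof males and -0.84 to -0.19 in control females, and these differences were not tested. Control female 6, for instance, combined 71.8 CPM of l(1)sc with 38.9 of SoxN, whereas control female 4 combined 41.4 of l(1)sc with 202 of SoxN.

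**Figure D3:**
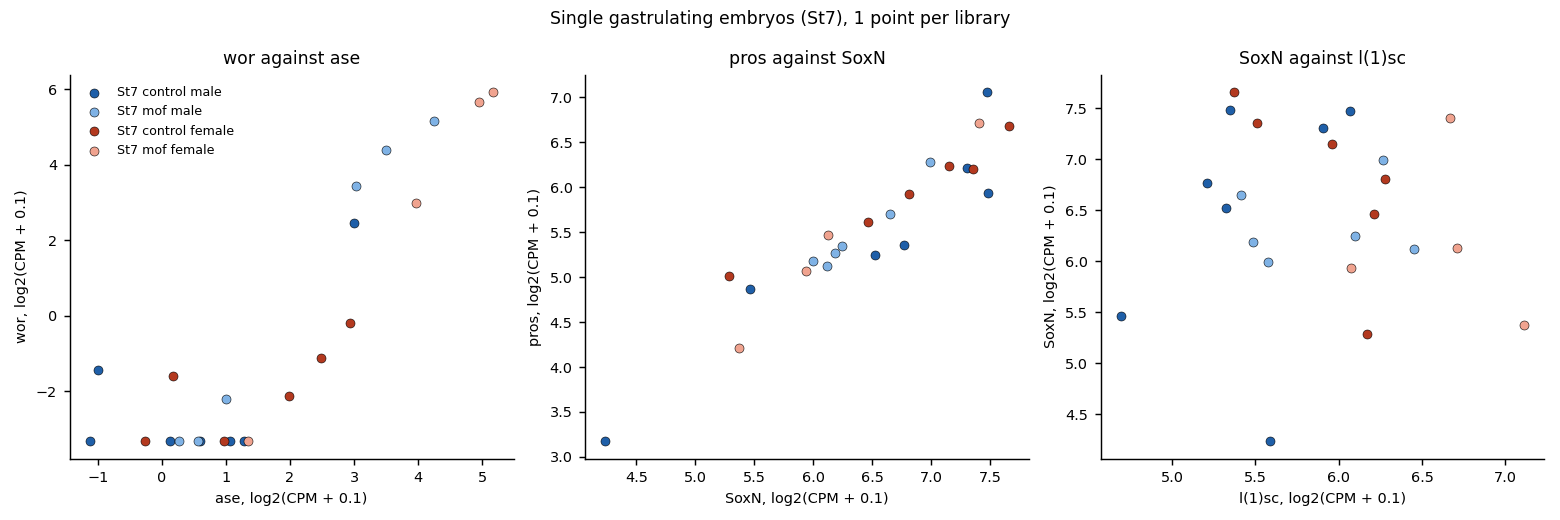
Single St7 embryos, 1 point per library coloured by group, with both axes as log2(CPM + 0.1). wor rises with ase (left), pros with SoxN (middle), and SoxN shows no common course with l(1)sc (right).

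Genes outside the members showed which transcripts shared these patterns. Over the 23 gastrulae, ase was most like scrt (r = 0.94), E(spl)mdelta-HLH (0.93) and CG8289 (0.92). scrt encodes a neural zinc finger protein of the Snail superfamily, and E(spl)mdelta-HLH encodes a repressor that responds to Notch. wor was most like scrt and Six4 (both 0.92) and MAN1 (0.92), l(1)sc most like CG8289 (0.92), CG5445 (0.90) and Nrg (0.90), and ac most like stas (0.88), PPP4R2r (0.86) and ewg (0.84). pros was most like lig (0.96), CG7518 (0.96) and zfh1 (0.95), and SoxN most like Ssdp (0.98), lig (0.98) and grn (0.97). For mira the 3 closest, near 0.91, were Tdrd3, qkr58E-2 and asRNA:CR45152. insc was closest to Fur1 (0.90), Pkn (0.90) and CG31122 (0.87).

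Members of several gene groups of early neurogenesis also rose in mof gastrulae, where 9.93% of all genes rose in males and 11.0% in females. Among 15 genes of Notch lateral inhibition, 4 rose in males and 7 in females, and 0 fell in either sex, with medians of 0.49 and 0.39 against -0.02 and -0.05 over all genes. E(spl)mdelta-HLH rose in males (2.13 ± 0.64, adjusted p = 0.0187), from a median of 5.17 CPM in controls to 30.5. In females its medians were 7.48 CPM in controls and 68.1 under mof RNAi. Because the genes named per list and direction are limited, a gene named for 1 sex may also differ in the other. E(spl)mbeta-HLH (3.12 ± 0.82, adjusted p = 0.00723) and E(spl)mgamma-HLH (2.91 ± 0.91, adjusted p = 0.0211), repressors of proneural genes, rose in females. The medians of E(spl)mbeta-HLH in males were 1.59 CPM in controls and 11.0 under mof RNAi, and those of scrt 3.60 and 12.4. Of 17 genes of asymmetric division, 5 rose in males and 7 in females and 0 fell, with aurA, the mitotic kinase, at 0.74 ± 0.21 and 0.85 ± 0.24 and numb, the inherited Notch inhibitor, at 0.57 ± 0.16 and 0.53 ± 0.18 (largest adjusted p = 0.0328). Of 6 tested genes of the neuroblast temporal series, 3 rose in males and 4 in females, with pdm2 at 0.59 ± 0.18 and 0.78 ± 0.21 (largest adjusted p = 0.0197). Of 8 tested neuroblast and SoxB factors, D rose in males (0.24 ± 0.06, adjusted p = 0.00651), and 3 rose in females, among them scrt (2.22 ± 0.66, adjusted p = 0.0147) and Sox21a (1.79 ± 0.64, adjusted p = 0.0408). Of the 7 columnar ectoderm genes 0 passed in either sex. Of 4 tested genes among other proneural factors and their partners, 1 rose in males and 2 in females, and 0 fell. Other genes of these lists had similar means in mof and control embryos. The proneural gene sc had 32.7 against 29.8 CPM in males and 47.0 against 47.6 in females. The neuroblast gene dpn had 52.6 against 51.5 and 53.2 against 53.2.

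Markers of some other cell types moved at the same time, where 9.93% of all genes rose and 15.3% fell in males and 11.0% and 16.8% in females. The 6 glia markers had a summed level of 113 to 216 CPM in male controls and 182 to 330.4 under mof RNAi. In females the sums were 104 to 199.7 and 196 to 377. Of 5 tested, 2 rose in males and 3 in females and 1 fell in each, with nrv2 (0.71 ± 0.19 and 1.00 ± 0.21) and gcm2 (1.51 ± 0.55 and 2.09 ± 0.61) higher and repo, the defining glial factor, lower (-1.24 ± 0.26 and -1.59 ± 0.32) in both sexes (largest adjusted p = 0.0463). repo itself was near 0, at 2.22 ± 0.491 CPM in control males and 0.862 ± 0.283 in mof males. Of 4 tested mesoderm and muscle markers 2 rose and 0 fell in each sex, the mesodermal transcription factor genes Mef2 (0.58 ± 0.14 and 0.46 ± 0.16) and tin (0.48 ± 0.12 and 0.53 ± 0.14), with adjusted p of at most 0.0354. The 6 mesoderm and muscle markers summed to 449 to 525 CPM in control males and 446 to 622 in mof males, and to 493 to 560 and 483 to 606 in females. Of 3 tested hemocyte markers 0 rose and 1 fell in each sex, Hml, which encodes the clotting protein hemolectin (-4.46 ± 0.63 and -3.39 ± 0.76, largest adjusted p = 0.00224), and the 7 markers summed to 129.8 to 302 CPM in control males, 162 to 261 in mof males, 217 to 289 in control females and 176 to 253 in mof females. Of 5 tested neuron markers 0 passed in males and 1 rose in females, and all 8 summed to 64.7 to 130 CPM in control males and 94.8 to 115 in mof males. The 8 cellularization genes, which decline after the blastoderm stage, summed to 99.8 to 231 CPM in control males and 70.7 to 193 in mof males, and were lowest in mof males 4 and 5, the mof males with the most wor. In females the same sums were 215 to 288 and 136 to 210 CPM without overlap. Of the 5 cellularization genes tested, 0 passed in either sex. The part of these in the rise of wor and ase was not tested.

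At gastrulation the X-linked members had lower means in males than in females, as had the autosomal pros, mira and SoxN, and among controls ac passed the test. ac had 37.8 to 85.8 CPM in control females (median 62.6) and 23.7 to 70.9 in control males (median 37.9). Control males were below control females for ac (-0.67 ± 0.20, adjusted p = 0.0430), and was the 1 of 8 members to pass, where 6.22% of all genes passed, 0.906% higher and 5.31% lower. The libraries of the sexes overlapped for all 8 members, where 3.81% of all genes had no overlap. l(1)sc did not pass (-0.51 ± 0.21, adjusted p = 0.231), and ase had -0.71 ± 0.78. Of the autosomal members, mira had -0.34 ± 0.17, pros -0.32 ± 0.44, SoxN -0.23 ± 0.43, insc -0.04 ± 0.15 and wor 1.47 ± 1.92. No autosomal member passed. The intervals ran from -0.69 to 0.01 for mira, from -1.24 to 0.60 for pros and from -1.13 to 0.67 for SoxN. A lower level in males was therefore not shown for these autosomal members. The part of X linkage in the lower values of the X-linked members was not tested. The median of all X-linked genes tested was -0.40 and that of autosomal genes 0.03. The call of ac was not stable: it was lost in all but 3 of the 13 fits without a single library, namely those without control male 4, control female 1 and control female 4, and had its highest adjusted p without control female 3 (-0.55, adjusted p = 0.135). sc, the neighbouring proneural gene, was lower in males among controls (-0.73 ± 0.11, adjusted p = 0.000150), with 25.96 to 38.5 CPM in control males and 35.5 to 53.5 in control females.

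Among mof gastrulae 0 of 8 members passed between the sexes in edgeR, 2 had an unadjusted p under 0.05 and 1 passed in DESeq2, where 6.01% of all genes passed, 1.07% higher and 4.94% lower in males. The sexes overlapped for all 8 members, where 5.40% of all genes had no overlap. l(1)sc had -0.79 ± 0.24 (adjusted p = 0.0568) and ac -0.60 ± 0.23 (adjusted p = 0.139), beside an X-linked median of -0.41. Of the autosomal members, wor had -1.50 ± 1.20, pros -0.13 ± 0.52, mira -0.09 ± 0.20, SoxN -0.03 ± 0.51 and insc 0.04 ± 0.17. l(1)sc passed without mof male 4 (-0.89, adjusted p = 0.0311), mof male 5 (-0.87, 0.0403) or mof female 4 (-0.94, 0.0175). sc was again lower in males (-0.55 ± 0.13, adjusted p = 0.00922).

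In late embryos wor fell and insc and pros rose by small amounts in both sexes, and the other members did not pass. wor had 19.6, 20.2 and 18.3 CPM in the 3 control males and 15.9, 16.1 and 13.7 in the 3 mof males. Control females had 18.8, 17.5 and 19.1 CPM and mof females 14.6, 12.8, 12.4 and 13.7. No mof pool reached any control pool of its sex. insc had 40.1, 39.4 and 38.9 CPM in control males and 48.3, 44.9 and 51.3 in mof males, and 37.97, 45.9 and 43.2 in control females against 46.8, 55.3, 50.98 and 47.3 in mof females. pros had 105.4 to 109.9 CPM in control males and 111.7 to 131 in mof males, and 97.1 to 110.04 in control females and 112.8 to 125 in mof females. Neither gene overlapped between mof and control pools of a sex, which held for 44.8% of all genes in males and 41.0% in females.

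In St15 males 2 of the 7 tested members rose and 1 fell, where 34.3% of 10684 genes passed, 16.0% up and 18.2% down. wor fell by 0.34 on the log2 scale (-0.34 ± 0.09, adjusted p = 0.00861), insc rose (0.29 ± 0.09, adjusted p = 0.0186) and pros rose (0.20 ± 0.07, adjusted p = 0.0400). In St15 females again 2 rose and 1 fell, where 26.0% of genes passed, 12.7% up and 13.3% down, with wor at -0.40 ± 0.08 (adjusted p = 0.00394), insc at 0.30 ± 0.08 (adjusted p = 0.0158) and pros at 0.25 ± 0.07 (adjusted p = 0.0145). The fall of wor passed in both sexes in every alternative run. insc in males did not pass without control male 4 (adjusted p = 0.0564) or without control male 2 and mof male 1 together (0.0804), the pools that carry 21.2 and 17.5 CPM of bcd, an egg transcript. insc in females did not pass without control female 2 (0.20, adjusted p = 0.122). pros in males passed in only 1 of the fits that left out a single library, that without mof male 4 (0.28, adjusted p = 0.00413), and had adjusted p of 0.0841, 0.0955, 0.0605, 0.10 and 0.131 without control male 1, 2, 4 and mof male 1 and 2. With scaling on autosomal genes pros in males was 0.15 (adjusted p = 0.128), and without control male 2 and mof male 1 together 0.17 (adjusted p = 0.196). pros in females did not pass without control female 3 (0.18, adjusted p = 0.104).

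**Figure D4:**
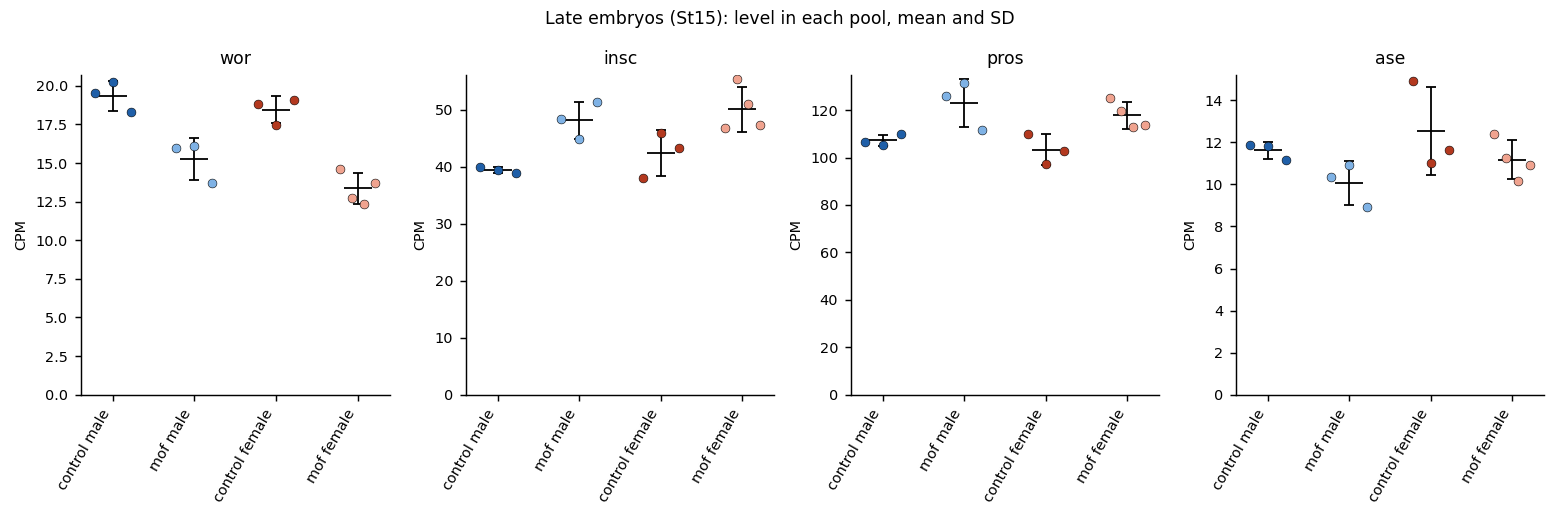
Level in CPM of wor, insc, pros and ase in each St15 pool (points), with the mean and SD of each group (bars), 3 pools per group except 4 of mof females. wor is lower and insc and pros higher in mof pools of both sexes, and ase is lower without overlap in mof males only.

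The remaining St15 members did not pass. SoxN had 131, 129 and 140.4 CPM in control males and 162, 171 and 141.3 in mof males (0.25 ± 0.11, adjusted p = 0.0938), and passed without mof male 4 (0.34, adjusted p = 0.0339). In females it had 0.18 ± 0.10 (adjusted p = 0.193). mira had 96.7, 98.01 and 90.4 CPM in control females and 84.3, 83.6, 77.5 and 83.4 in mof females (-0.15 ± 0.07, adjusted p = 0.136), and -0.01 ± 0.08 in males. l(1)sc in females had 1.10, 3.58 and 0.827 CPM in controls and 0.604 to 1.15 under mof RNAi (-1.12 ± 0.48, adjusted p = 0.102). This difference rested on control female 3, without which the value was -0.23 (adjusted p = 0.730), and without control female 4 it was -1.49 (adjusted p = 0.0427). ac was not tested at St15 because of its low counts, and its highest level, 0.999 CPM, was also in control female 3.

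The X-linked members tested at St15 were ase and l(1)sc, and 1080 of 1696 tested X-linked genes fell in mof males. l(1)sc had 1.39, 0.855 and 0.892 CPM in control males and 0.87, 0.782 and 0.283 in mof males, which overlapped. It did not pass (-0.70 ± 0.56, adjusted p = 0.364), with a 95% interval from -1.90 to 0.50 that holds both 0 and the X-linked median. ase had 11.9, 11.8 and 11.2 CPM in control males and 10.3, 10.9 and 8.92 in mof males, without overlap, as for 44.8% of all genes. Its log2 fold change of -0.20 ± 0.12 did not pass (adjusted p = 0.231, 95% interval -0.47 to 0.06), beside a median of -0.52 over 1696 X-linked genes and 0.07 over 8767 autosomal genes. In females ase had -0.10 ± 0.12 (adjusted p = 0.527), with an X-linked median of 0.01. The difference of the mof effect between the sexes was -0.10 ± 0.17 for ase (adjusted p = 0.732), with an interval of -0.47 to 0.27 and an X-linked median of -0.50. For that difference 0 of 7 members passed in edgeR or DESeq2, with 0 under an unadjusted p of 0.05, where 16.7% of all genes passed, 6.56% positive and 10.2% negative. wor had 0.06 ± 0.12, insc -0.01 ± 0.12 and pros -0.05 ± 0.10 in it. Without mof male 4, mira passed (0.27, adjusted p = 0.0268).

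Between late males and females no member differed by the test. Between control males and control females 0 of 7 passed in edgeR or DESeq2, with 0 under an unadjusted p of 0.05, where 1.30% of all genes passed, 0.365% higher and 0.936% lower, and 19.6% had no overlap against 0 members. The interval was -0.39 to 0.15 for ase, -0.20 to 0.13 for mira and -0.21 to 0.26 for SoxN. Between mof males and mof females 0 of 7 passed in edgeR or DESeq2, with 0 under an unadjusted p of 0.05, where 48.5% of all genes passed, 24.4% higher and 24.1% lower in males, and 50.3% had no overlap against 0 members. ase had -0.22 ± 0.12 there (adjusted p = 0.134) and an X-linked median of -0.58 beside it. Without mof male 4, wor (0.23, adjusted p = 0.0358) and mira (0.22, adjusted p = 0.00593) passed.

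Over the 13 St15 pools wor and insc ran against each other, with Pearson's r of -0.93 (rho -0.93, and -0.93 without the 2 pools farthest from the median). This is a description of pools that share the mof and control grouping. By the same measure wor was most like Prat2 (0.97), Sgf11 (0.96) and TORIP (0.95), insc like CG42663, CG42534 and CG30377 (0.95 to 0.96), pros like bab2 (0.94), lili and CG6959 (both 0.91), ase like CG11241 (0.91), CG4194 (0.88) and brk (0.88), mira like otp (0.92), eya (0.91) and mtm (0.89), SoxN like mtgo and SCAR (both 0.93) and hppy (0.91), and l(1)sc like CG8300 (0.87), loqs (0.86) and Chrac-16 (0.85).

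Other neural genes at St15 are given by their counts, beside the shares of all genes that rose and fell, 16.0% and 18.2% in males and 12.7% and 13.3% in females. Of 15 Notch genes, 4 rose in each sex and 0 fell, with E(spl)mbeta-HLH at 0.83 ± 0.09 in males (adjusted p = 9.62e-06) and 0.50 ± 0.08 in females (adjusted p = 0.00107). Of 9 tested neuroblast and SoxB factors, 2 rose and 1 fell in males and 1 rose in females. dpn, a repressor that maintains neuroblasts, fell in males (-0.42 ± 0.10, adjusted p = 0.00439), from 14.98 ± 0.253 to 11.2 ± 1.38 CPM. In females dpn was also lower, at 11.7 ± 0.834 CPM under mof RNAi against 14.0 ± 0.597 in controls, without passing. D, a SoxB relative of SoxN, rose in both sexes (0.17 ± 0.06 and 0.27 ± 0.06, largest adjusted p = 0.0447). Of 17 asymmetric division genes, 4 fell in males and 1 rose in females. The X-linked polarity genes par-6 (-0.78 ± 0.12, adjusted p = 0.000185) and dlg1 (-0.52 ± 0.06, adjusted p = 8.84e-06) fell in males, and scrib rose in females (0.34 ± 0.08, adjusted p = 0.00791). Of 8 tested neuron markers 2 fell in males, futsch (-0.38 ± 0.06, adjusted p = 0.000298) and fne (-0.36 ± 0.10, adjusted p = 0.0151), and 0 passed in females. These counts are small, and several lie near the shares of all genes. The lists were not split by chromosome, and all X-linked genes tested had a median of -0.52 in males and 0.01 in females. The part of X linkage in the falls in males was not tested.

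Of 6 glia markers, 1 rose and 1 fell in males and 2 rose and 1 fell in females. repo rose in both sexes (0.45 ± 0.10 and 0.39 ± 0.09, largest adjusted p = 0.00788), while moody, a receptor of the glial blood-brain barrier, fell in males (-0.33 ± 0.07, adjusted p = 0.00186) and rose in females (0.19 ± 0.06, adjusted p = 0.0357), and gcm2 fell in females (-0.53 ± 0.16, adjusted p = 0.0313). These markers were not split by chromosome either, beside X-linked medians of -0.52 in males and 0.01 in females. The neuron markers summed to 1533 to 1616 CPM in control males and 1354 to 1503 in mof males, and the glia markers to 529 to 553 and 512 to 539.5. Of 6 tested hemocyte markers 2 rose in females, the collagen genes vkg (0.44 ± 0.11, adjusted p = 0.0112) and Col4a1 (0.43 ± 0.11, adjusted p = 0.0108), and 0 passed in males. The 7 hemocyte markers summed to 4831 to 5864 CPM in control females and 6538 to 7188 in mof females, and to 4822 to 4895 and 5168 to 6993 in males, without overlap in either sex. Of 6 mesoderm and muscle markers 1 rose in males and 2 in females and 0 fell, and their sum was 17654 to 19592 CPM in control females and 20893 to 21903 in mof females, without overlap. In males it was 17693 to 18475 and 15392 to 20263, which overlapped. The part of these markers in the changes of wor, insc and pros was not tested.

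S2 cells held a single member at a high level. SoxN had 209, 225 and 221 CPM after GFP dsRNA and 223, 224 and 218 after mof dsRNA, above the 202 CPM of the highest embryo library, control female 4 at St7. insc had 7.52, 7.32 and 7.32 CPM after GFP dsRNA and 8.51, 8.44 and 8.87 after mof dsRNA, and mira 2.66 to 3.50 and 3.22 to 4.06. ac, l(1)sc, ase, wor and pros had at most 0.271 CPM in any S2 library and were not tested for their low counts. The other neuroblast and SoxB factors summed to 4.47 to 4.99 CPM over the 6 libraries, while hemocyte markers summed to 7450 to 11330 CPM, so the S2 libraries held hemocyte RNA and SoxN RNA with little RNA of the other neuroblast factors. Of the 3 tested members 0 passed in edgeR or DESeq2, 1 had an unadjusted p under 0.05, and 23.4% of all genes passed, 10.2% up and 13.2% down. insc had 0.22 ± 0.08 (adjusted p = 0.0759), without overlap between treatments as for 40.2% of all genes, and SoxN 0.03 ± 0.05 (interval -0.07 to 0.13).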

How the data were processed

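Libraries were made from polyA RNA with a stranded TruSeq kit, per the labels' protocols. The deposited files are 4 tables of raw read counts per gene, 1 per stage or cell line, and the reads were mapped to dm6 per the submitters' processing notes. The aligner, the counter, its annotation and its use of strand: not given in the sources used here. Places are from Ensembl release 115. Of the St5 names, 12887 were found as symbols, 3605 as locus tags and 860 as synonyms of 1 gene (90 ambiguous, 116 not found). FlyBase identifiers placed 17252 genes elsewhere, with 306 not found. The list genes da, esg, Dl, VAChT, para, nos, sry-alpha and frs were not matched in all tables and were left out. CPM is a gene's count over the library's total count.

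Each table was fitted alone with edgeR 4.0.16 in R 4.3.3 (TMM scaling, filterByExpr, robust quasi-likelihood fit, 1 mean per group, no block), over 9103, 8717, 10684 and 9676 genes. Standard errors were derived from F (size of the log2 fold change divided by its root). The 15 comparisons are mof against control per sex and stage and in S2 cells, males against females in controls of each stage and in mof embryos of St7 and St15, and the interaction of mof with sex. Likeness is Pearson's r of TMM log2 CPM, among genes with a mean of at least 2, and the 3 highest are named. Up to 2 genes per list and direction are named. The members and lists were chosen with earlier results of these data known. Alternatives were DESeq2 1.42.0, other scalings, no low count filter, a replicate block, only the groups compared, and leaving out libraries. The code was tested on simulated data. Same-numbered libraries did not deviate together (correlations of -0.49 to 0.23), so numbers were not taken as pairs. No libraries were duplicates (smallest chi-square per degree of freedom 6.14).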

Additional observations from a re-analysis of the deposited data

Results flagged for a closer look

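Of 54 sets of 4 to 10 libraries of a group and gene, 5 held a library whose gap to the nearest other exceeded Dixon's 95% critical value, and chance gives about 1 in 20. l(1)sc had 9.47 CPM in the library St5 mof male 4, where the other 3 mof males had 5.83 to 6.22. In St7 control male 4, ase had 7.90 CPM and wor 5.41, where the other 6 control males had 0.359 to 2.34 and 0 to 0.268. mira had 273 CPM in St7 control male 1, below 445 to 554 in the other 6, and that embryo was also the lowest control male for pros and SoxN. mira had 77.5 CPM in St15 mof female 3, below 83.4 to 84.3 in the other 3.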

How the results depend on the processing

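The mof against control counts of members that passed at St7 and St15 depended on settings where the report names single genes. In St7 males the count of rises (2) was 1 with no low count filter, 0 with only the groups compared (wor is then filtered out) and 0 with the replicate block, 3 with DESeq2, RLE scaling or autosomal scaling, and 0 to 5 without single libraries. In St7 females the count (3) was also 3 with only the groups compared, with ac in place of wor, and 2 to 4 without single libraries. Among St7 controls, the count of members lower in males (1) was 0 with no filter, 0 with only the groups compared, 0 with the block and 0 to 1 without single libraries. Among St7 mof embryos the count lower in males (0) was 1 with DESeq2, 1 with RLE scaling, 1 with scaling on autosomal genes and 0 to 1 without single libraries. In St15 males the count of rises (2) was 1 with no filter, 1 with only the groups compared, 1 with autosomal scaling, and 0 to 3 without single libraries. It was 0 without control male 2 and mof male 1, and 0 with control female 3 left out as well. In St15 females the count of rises (2) was 1 with those 3 pools left out and 1 to 2 without single libraries, and that of falls (1) was 2 with only the groups compared and 1 to 2 without single libraries. Among St15 mof embryos the count lower in males (0) was 1 with the block, and that of higher 0 to 2 without single libraries, and for the St15 difference it was 0 to 1. At St5, the female count of rises (0) was 2 with DESeq2, 1 with only the groups compared and 0 to 2 without single libraries, that of falls (0) was 1 with only the groups compared, and among controls 3 to 4 higher and 1 to 2 lower passed without single libraries, 3 higher with the block, and 3 lower with only the groups compared or without mof males 1 and 2 and control male 3. The cause of these shifts was not tested. The one reversed value is ac in St5 males, -0.14 without mof males 1 and 2, an alternative chosen after seeing the data. With the 2 mof females of St5 crossed in the block, chosen after seeing the data, 0 members passed. The replicate number did not pair libraries, and the block changed the counts given here. Every library correlated best with its own number in St15 males only, a hint from the data. The values of ac and l(1)sc at St15 and of wor in St7 controls rest on few counts.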
